A study of Pinctada fucata with 15 samples.

Results

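The 5 unigenes of the pearl oyster Pinctada fucata described here, unigene18749, unigene34354, unigene35118, unigene51738 and unigene56675, were followed from the fertilized egg to the juvenile. A unigene is a transcript assembled from short reads, here from the mantle of adult oysters. They were chosen by the study as candidate shell matrix genes through a chain of filters. The first filter selected on the measured signal, which had to be at least 20-fold higher in juveniles than at the umbonal stage, and the later ones asked for no annotation with a defined function, a signal peptide for secretion and tandem-arranged repeat units in the predicted protein. Each of the 5 is represented by 1 probe, out of 58883 probes on the array, and all 5 are among the 831 uncharacterized probes that the study listed past its 20-fold limit. Since the values of juveniles and of the umbonal stage chose these genes, every comparison that uses those stages is given as a description with no test. Tests were run only among fertilized eggs, the trochophore stage and the D-shaped stage, whose arrays had no part in the choice.

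Molluscan shell is laid down by the mantle, a sheet of tissue that secretes matrix proteins onto the growing mineral. In Pinctada, the mantle pallial zone is tied to the inner nacreous layer of aragonite and the mantle edge to the outer prismatic layer of calcite. Many known matrix proteins are secreted and built of repeated blocks, often rich in a few amino acids, and bind chitin, calcium carbonate or each other. The larva first makes the prodissoconch, a thin larval shell that begins at the D-shaped stage and is enlarged at the umbonal stage, whereas the layered dissoconch is made after settlement.

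RNA came from pooled, untreated animals raised from fertilizations of adult oysters, and 1 one-colour (Cy3) Agilent array was hybridised for each of 3 pools per stage. The stages were fertilized eggs (0 h), the trochophore stage (17 h), the D-shaped stage (48 h), the umbonal stage (14 days) and juveniles (35 days). The labels do not say whether the 3 pools of a stage came from separate spawnings, so the p values measure only the spread between these pools, which may be technical in part. RNA was taken from whole animals, so a change in the number of cells that use a gene and a change in RNA per cell cannot be told apart.

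The values are log2 processed signals after quantile normalization, which gives all 15 arrays the same distribution. A signal was called well above background by the flag of the scanner software, and a stage in which no array carries that flag gives only an upper bound. The share of probe spots with the flag was 53.3% to 91.3% per array and was lowest in eggs. The lowest signal that still carried the flag averaged 6.26 in eggs, 5.61 at the trochophore stage, 4.67 at the D-shaped stage, 3.81 at the umbonal stage and 3.42 in juveniles, so a weak signal was harder to detect in the early stages. Eggs, trochophores and D-shaped pools 1 and 2 shared slide 1, and D-shaped pool 3, umbonal larvae and juveniles shared slide 2. In comparisons across the slides, the slide and the stage cannot be told apart outside the D-shaped stage. A brightness is set only against the same probe on other arrays, since probes bind their targets with unlike strength.

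The signals of 11 known mantle genes were summed at each stage. They are Pif, Pearlin, Nacrein and an MSI60-related protein of the nacreous layer, KRMP 1, Prismalin-14 and Prisilkin-39 of the prismatic layer, and Shematrin-4, -5, -6 and -7 of both layers. All 11 were well above background on all 3 arrays in juveniles, and the number on no array was 5 in eggs, 7 at the trochophore stage, 5 at the D-shaped stage and 4 at the umbonal stage. The number on all 3 arrays was 2 in eggs (Prisilkin-39 and Shematrin-7), 3 at the trochophore stage, 4 at the D-shaped stage and 5 at the umbonal stage. Their quantile-normalized signals were taken off the log2 scale and summed, which gives bright probes the most weight. The sum was 185693 to 228352 in juveniles, against 848 to 1076 at the umbonal stage. It was 1174 to 2930 in eggs, 1802 to 2562 at the trochophore stage and 1038 to 1729 at the D-shaped stage. It was thus higher in eggs than at the umbonal stage, so before the juvenile it cannot be read as an amount of mantle. The 5 candidates and the mantle genes were therefore high on the same 3 arrays, and the part of mantle growth in the candidates' signal was not tested.

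**Figure D1:**
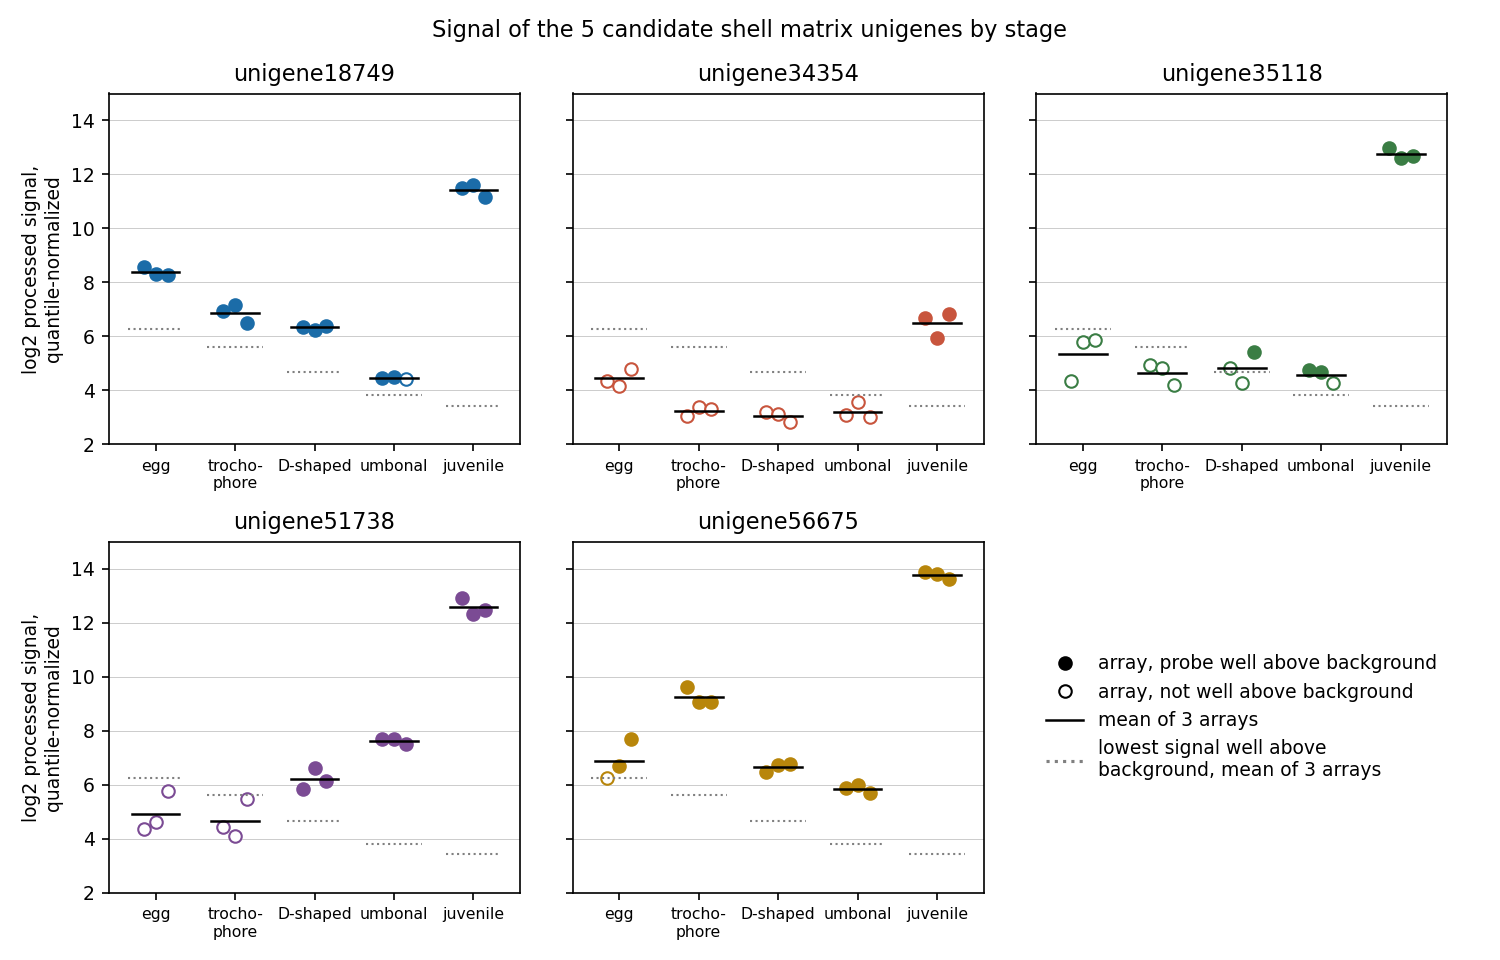
Log2 processed signal (quantile-normalized, y axis) of each unigene on each of the 15 arrays, by stage (x axis). Filled points are well above background and open points are not, black bars are means of 3 arrays, and dotted bars are the mean of the lowest signal well above background. The 3 juvenile arrays sit above the other 12 in all 5 panels, while the order of the 4 earlier stages differs from panel to panel.

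The early profiles of the 5 genes differed in kind. Unigene18749 was carried at a measurable level by the egg and its signal was lower at each later larval stage. Unigene56675 had a transient maximum at the trochophore stage. Unigene51738 became measurable at the D-shaped stage and was higher at the umbonal stage. Unigene35118 was near background on most arrays before the juvenile, with the flag on D-shaped pool 3 and umbonal pools 1 and 2, and unigene34354 was not well above background on any array before the juvenile. In juveniles all 5 were well above background on all 3 arrays.

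Unigene18749 (probe CUST_18739_PI429347424) has no annotation. Its log2 signal was 8.57, 8.32 and 8.27 in eggs, 6.95, 7.16 and 6.48 at the trochophore stage, 6.35, 6.25 and 6.39 at the D-shaped stage, 4.47, 4.48 and 4.42 at the umbonal stage and 11.51, 11.62 and 11.16 in juveniles. The arrays of no 2 stages overlapped, and the stages ran, from high to low, juvenile, egg, trochophore, D-shaped and umbonal. The flag was set on every array except umbonal pool 3. Of the 5 genes only this one was well above background on all 3 egg arrays, as were 69 of the 831 listed uncharacterized probes (8.30%) and 52.9% of all probes. The choice of the list favours probes that are dim before the juvenile, so these 2 shares have unlike bases.

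Unigene18749 fell at the trochophore stage. It averaged 6.87 ± 0.35 at the trochophore stage and 8.39 ± 0.16 in eggs (SD, n = 3 each), a log2 change of -1.52 (SE 0.17) or 2.87-fold lower, with a limma adjusted p of 2.2e-06. At the D-shaped stage it averaged 6.33 ± 0.07 and was 4.16-fold lower than in eggs (log2 change -2.06, SE 0.17, limma adjusted p = 9.8e-08). From the trochophore to the D-shaped stage the change was -0.54 (SE 0.17, 95% interval -0.91 to -0.16, limma adjusted p = 0.017), which lies under the 2-fold limit. When the arrays were scaled by spike-in control RNA in place of quantile normalization, the change at the trochophore stage shrank to -0.58 (adjusted p = 0.019), that at the D-shaped stage against eggs to -0.30 (adjusted p = 0.18), and that of the D-shaped against the trochophore stage turned to 0.27. With normexp background correction the change at the trochophore stage was -0.98, just under the 2-fold limit. The fall against eggs is thus a fall relative to the other probes on the array. The same spike-in scaling moved the median of all tested probes to 0.42 at the trochophore stage and 1.15 at the D-shaped stage, each against eggs.

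At the umbonal stage unigene18749 averaged 4.46 ± 0.03, against 6.33 ± 0.07 at the D-shaped stage, a log2 difference of -1.87. The difference was -1.93 when only the D-shaped pool on the same slide was used. Juveniles averaged 11.43 ± 0.24, a log2 difference of 6.97 over the umbonal stage or 126-fold, and 0.558% of the 52326 probes measured in 1 or both of these stages had a larger one. Against eggs, the stage where this gene was next highest, the juvenile arrays were still apart, with a lowest juvenile value of 11.16 and a highest egg value of 8.57.

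Unigene56675 (probe CUST_56635_PI429347424) is annotated by the study as similar to a hypothetical protein of the ciliate Tetrahymena and, at the protein level, to an uncharacterized nacre protein of Pinctada margaritifera. Its log2 signal was 6.27, 6.68 and 7.69 in eggs, 9.62, 9.08 and 9.09 at the trochophore stage, 6.47, 6.74 and 6.79 at the D-shaped stage, 5.88, 6.01 and 5.68 at the umbonal stage and 13.90, 13.81 and 13.65 in juveniles. Every trochophore array was above every egg, D-shaped and umbonal array. Egg and D-shaped arrays overlapped, and the flag was missing only on egg pool 1.

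The gene rose at the trochophore stage and fell at the next stage. It averaged 9.26 ± 0.31 at the trochophore stage and 6.88 ± 0.73 in eggs (SD, n = 3 each), a log2 change of 2.38 (SE 0.28, 5.21-fold, limma adjusted p = 3.6e-06). This rise could be tested only through the trochophore stage, since egg pool 1 lacked the flag, and a filter on all 6 arrays left it untested. At the D-shaped stage the gene averaged 6.67 ± 0.17 and was 6.03-fold lower than at the trochophore stage (log2 change -2.59, SE 0.28, limma adjusted p = 4.0e-06). The D-shaped stage and the eggs did not differ past the threshold, with a change of -0.21, a 95% interval of -0.83 to 0.40 and a limma adjusted p of 0.50. That last comparison depended on the scaling, being 0.85 (adjusted p = 0.055) with each array shifted by its 75th percentile and 1.88 (adjusted p = 0.0002) with spike-in scaling. The rise and the fall around the trochophore stage kept their direction and passed the limits under both of those scalings. They were also kept within slide 1, where the D-shaped pools 1 and 2 were lower than the trochophore stage by a log2 difference of -2.65 (limma adjusted p = 2.2e-05).

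A rise at the trochophore stage followed by a fall at the D-shaped stage was called for 5.86% of the 36804 probes tested at both steps. Only 2 of the 5 candidates could be tested at both, and unigene56675 was the one with this pattern. Among the 30 known biomineralization genes that the study tabulated, 14 could be tested at both steps and 3 had it, namely Tyrosinase, PFMG3 and Shematrin-7. Tyrosinase had the flag on 1 egg and 2 D-shaped arrays, and PFMG3 on no egg or D-shaped array. The rise of PFMG3 is known only as a bound of at least 1.41-fold, under the 2-fold limit. Shematrin-7, a glycine-rich matrix protein, averaged 10.49 ± 0.37 at the trochophore stage, against 8.96 ± 0.41 in eggs, and was well above background on every array. Among the listed uncharacterized probes the pattern was called for 27 of the 126 tested at both steps. A probe measured only at the trochophore stage could enter both tests, so the filter favours this pattern in lists that are dim early. The counts of the lists can therefore not be set against the share of all probes.

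After quantile normalization the umbonal stage gave unigene56675 its lowest mean, 5.85 ± 0.16, against 6.67 ± 0.17 at the D-shaped stage, a log2 difference of -0.81. Its place below the eggs depended on the scaling. With each array shifted by its 75th percentile, the log2 values were -5.66, -4.70 and -3.44 in eggs. At the umbonal stage they were then -4.35, -4.33 and -4.62, so the 2 stages overlapped. Juveniles averaged 13.78 ± 0.13, a log2 difference of 7.93 over the umbonal stage or 244-fold, and 0.363% of the probes measured there had a larger one. The spread among the juvenile pools was the smallest of the 5 genes.

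Unigene51738 (probe CUST_51699_PI429347424) has no annotation. Its log2 signal was 4.36, 4.61 and 5.77 in eggs, 4.44, 4.09 and 5.48 at the trochophore stage, 5.84, 6.61 and 6.14 at the D-shaped stage, 7.70, 7.71 and 7.53 at the umbonal stage and 12.93, 12.35 and 12.47 in juveniles. It was well above background on no egg or trochophore array and on all arrays from the D-shaped stage on. From the D-shaped stage onward the values of successive stages did not overlap, while those of eggs and trochophores did. It is the only 1 of the 5 whose umbonal arrays all exceeded its D-shaped arrays while well above background.

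The gene became measurable at the D-shaped stage and was testable only through that stage. It averaged 6.20 ± 0.39 there, against 4.67 ± 0.73 at the trochophore stage (SD, n = 3 each), with a fitted log2 change of 1.53 (SE 0.38, 95% interval 0.70 to 2.35, limma adjusted p = 0.0038). The fit passed the limits, but it rests on trochophore values that lacked the flag on every array. What was measured is a bound of at least 1.45-fold, which is under the 2-fold limit, taken against the higher of the gene's own signal and the lowest signal well above background on each trochophore array. With normexp background correction the fitted change was 0.47. Against eggs, which averaged 4.91 ± 0.75, the fitted change was 1.29 (SE 0.38, limma adjusted p = 0.0072). The lowest signal with the flag ran from 5.61 to 6.99 on the egg arrays and averaged 6.26, beside the gene's D-shaped mean of 6.20. Averaged over the egg arrays this leaves no bound on a rise, so no rise against eggs can be read.

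At the umbonal stage unigene51738 averaged 7.64 ± 0.10, against 6.20 ± 0.39 at the D-shaped stage, a log2 difference of 1.44 or 2.72-fold, and the difference was 1.505 against the D-shaped pool of the same slide. Of 47813 probes measured in 1 or both stages, 11.1% had a larger one. Juveniles averaged 12.58 ± 0.31, 30.6-fold above the umbonal stage (log2 difference 4.94). Its signal in processed units ran from 293 to 387 in umbonal pools, so that its juvenile level stood above an already measured larval level, which was the case for only unigene56675 besides it on all 3 umbonal arrays.

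Unigene35118 (probe CUST_35096_PI429347424) is annotated by the study as similar to a predicted protein of the pea aphid Acyrthosiphon pisum, and a chitin-binding domain was predicted in its protein. Chitin is a polysaccharide of the organic framework of molluscan shells. Its log2 signal was 4.36, 5.78 and 5.87 in eggs, 4.93, 4.83 and 4.18 at the trochophore stage, 4.82, 4.26 and 5.43 at the D-shaped stage, 4.74, 4.68 and 4.29 at the umbonal stage and 12.96, 12.61 and 12.70 in juveniles. The 4 stages before the juvenile overlapped with each other. The flag was set on D-shaped pool 3 and on umbonal pools 1 and 2, all on slide 2, and on no array of slide 1, so its first detection cannot be told apart from the slide. It was not tested among the early stages because it was not well above background on all 3 arrays of any of them.

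Juveniles averaged 12.76 ± 0.18 for unigene35118, against 4.57 ± 0.25 at the umbonal stage. The log2 difference of 8.19, or 292-fold, was the largest of the 5, and 0.310% of the probes measured in those stages had a larger one. Its umbonal and D-shaped means differed by -0.27, less than the spread of 0.58 among D-shaped pools, and leaving out D-shaped pool 3 turned that difference to 0.02.

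Unigene34354 (probe CUST_34332_PI429347424) has no annotation, and the probe was printed at 2 spots of each array. Its log2 signal was 4.36, 4.16 and 4.80 in eggs, 3.04, 3.36 and 3.32 at the trochophore stage, 3.19, 3.12 and 2.84 at the D-shaped stage, 3.08, 3.55 and 3.01 at the umbonal stage and 6.67, 5.93 and 6.83 in juveniles. None of the 12 arrays before the juvenile carried the flag, and the values of those stages have no order, since they lie under the lowest measurable signal of their arrays. Being unmeasured on all 12 was the case for 269 of the 831 listed uncharacterized probes (32.4%), for 5 of the 30 known biomineralization genes and for 6.30% of all probes. The list was chosen on a high ratio of juvenile over umbonal signal, which favours probes that are dim before the juvenile. Of all 58883 probes, 51539 had the flag on all 3 juvenile arrays, so these shares have unlike bases.

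The spots of unigene34354 agreed closely where the gene was measured. Their processed signals were 237 and 243 in juvenile pool 1, 133 and 143 in pool 2, and 215 and 214 in pool 3, which are log2 differences of 0.03, 0.11 and -0.01. On the 12 other arrays no spot exceeded 20.2, and the spots differed by up to 1.04 on the log2 scale, in umbonal pool 1. The scanner software called 4 of the 6 umbonal spots positive and significant, but none well above background, against 0 of 6 at the D-shaped stage, 0 of 6 at the trochophore stage and 1 of 6 in eggs.

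**Figure D2:**
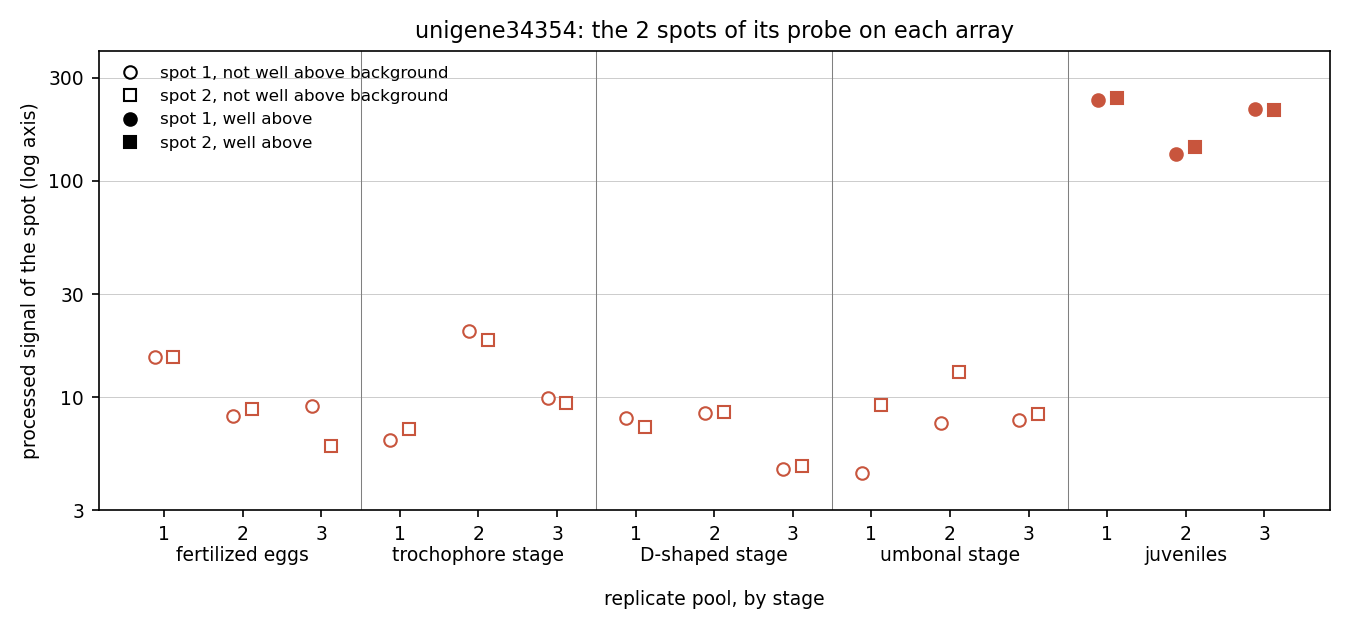
Processed signal (log axis) of both spots of the unigene34354 probe on each array, by stage and pool. Filled symbols are well above background. The 6 juvenile spots lie between 133 and 243, and all other spots lie at or below 20.2.

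The juvenile difference of unigene34354 is known only as a bound. Juveniles averaged 6.48 ± 0.48, against 3.21 ± 0.30 at the umbonal stage, a fitted log2 difference of 3.26 or 9.60-fold. As the umbonal arrays did not measure it, the bound is at least 6.36-fold, which does not place the gene above or below 20-fold. With each array shifted by its 75th percentile the ratio was 21.6, and in the authors' processed values it was 22.4, both again over umbonal values that were not measured.

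In the authors' processed values, which chose the genes, the juvenile signal over the umbonal signal was 207-fold for unigene35118, 153-fold for unigene56675, 100.01-fold for unigene18749, 22.4-fold for unigene34354 and 21.9-fold for unigene51738. They held places 138, 177, 253, 747 and 759 among the 831 listed uncharacterized probes, whose lowest fold was 20.02. The ratio and the place of unigene34354 rest on an umbonal signal that was not measured. The 2 highest probes under the limit stood at 19.998 and 19.98. After quantile normalization 4 of the 5 genes, and 640 of the 831, were past 20-fold, as were 1.91% of all 52326 probes measured in 1 or both stages. The median difference of the 5 was 6.97 between juveniles and the umbonal stage, 6.38 between juveniles and the D-shaped stage and -0.27 between the umbonal and the D-shaped stage. All 3 juvenile arrays stood above the 12 others for all 5 genes, as they did for 13.7% of the 51445 probes well above background in juveniles. These values were used in the choice.

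**Figure D3:**
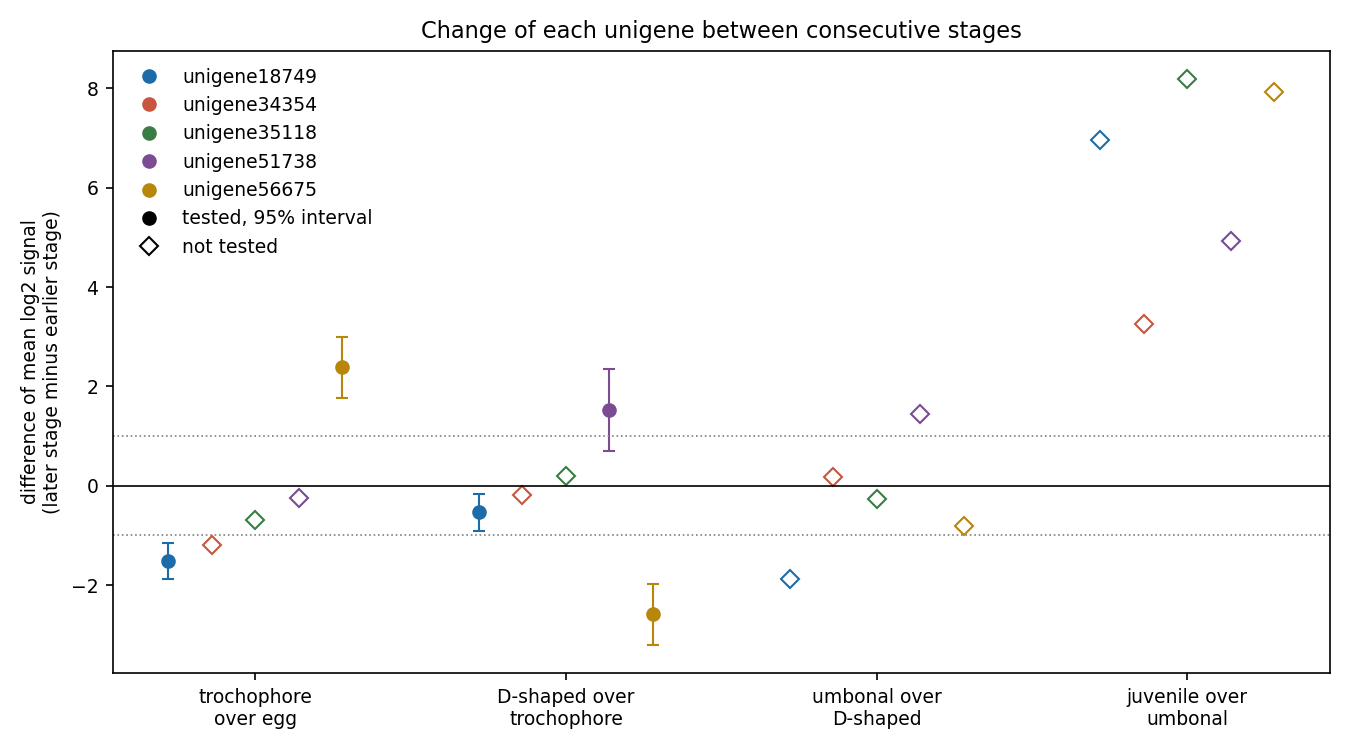
Difference of mean log2 signal (y axis, later stage minus earlier stage) for each unigene at each step between consecutive stages (x axis). Circles were tested and carry 95% intervals, open diamonds were not tested, and dotted lines mark 2-fold. At the trochophore stage unigene56675 is at 2.38 and unigene18749 at -1.52, and at the step to the juvenile all 5 lie between 3.26 and 8.19.

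At the trochophore stage against eggs, 2 of the 5 were testable and both were called, 1 higher and 1 lower, where 53.1% of all 38152 tested probes were called, 26.1% as higher and 27.0% as lower. At the D-shaped against the trochophore stage, 3 were testable, with unigene51738 called higher and unigene56675 lower, where 33.6% of 42171 probes were called, 16.9% as higher and 16.7% as lower. For the D-shaped stage against eggs, 3 were testable, with unigene51738 called higher and unigene18749 lower, where 61.0% of 42870 probes were called, 30.5% in each direction. Both calls of unigene51738 rest on early values that were not measured. With spike-in scaling the share of called probes that were higher moved to 66.2%, 83.1% and 77.6% at these 3 comparisons, against 49.1%, 50.4% and 50.04% after quantile normalization.

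Of the 30 known biomineralization genes, 14 could be tested at the trochophore stage against eggs, where 3 were called higher and 1 lower, and their median change was -0.42, beside -0.07 for all tested probes. Without egg pool 1 they were 2 higher and 3 lower. Tyrosinase, an enzyme that oxidizes tyrosine and is used in the outer organic cover of the shell, rose by 1.63 on the log2 scale (limma adjusted p = 0.013), although only 1 egg array measured it. PFMG3, a mantle gene, was called with a fitted change of 2.11 (limma adjusted p = 2.1e-06), but no egg array measured it and the bound is at least 1.41-fold. PFMG8, another mantle gene, fell by 1.76 (limma adjusted p = 6.6e-05).

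At the D-shaped against the trochophore stage, 16 of the 30 could be tested, 2 were called higher and 4 lower, and their median was -0.10, beside -0.16 for all tested probes. The split depended on the scaling, with 4 higher and 4 lower after the 75th-percentile shift and 4 higher and 1 lower with spike-in scaling. Chitin synthase, which makes the chitin of the shell framework, rose by 6.27 (limma adjusted p = 3.2e-10), and PFMG2 rose by 2.51 (limma adjusted p = 6.5e-09). PFMG3 was called lower with a fitted change of -3.08 (limma adjusted p = 1.4e-07), but no D-shaped array measured it and the bound is at least 4.24-fold. Tyrosinase fell by 1.60 (limma adjusted p = 0.021). Of the 4 nacreous genes 1 could be tested there and of the 3 prismatic genes 2, and none of these was called. At the D-shaped stage against eggs, 14 of the 30 could be tested, with 2 called higher and 2 lower, and 6 higher and 0 lower with spike-in scaling.

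Among the 831 listed uncharacterized probes, 138 could be tested at the trochophore stage against eggs, of which 57 were called higher and 38 lower. At the D-shaped against the trochophore stage 209 could be tested, with 55 higher and 47 lower. For the D-shaped stage against eggs 209 could be tested, with 81 higher and 48 lower, and 155 higher and 23 lower with spike-in scaling. These splits turned when dim probes were not filtered out, to 90 higher and 161 lower, 80 higher and 101 lower, and 106 higher and 212 lower at the 3 comparisons in this order. Of the 281 annotated probes of the same list, 57 were testable at the trochophore stage against eggs, with 20 higher and 17 lower. A listed probe was testable only when measured in an early stage, so these counts do not describe the whole list.

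For each gene, the 3 probes with the most similar profile were sought among the other 51444 probes well above background in juveniles, as the smallest root mean square (RMS) difference, on the log2 scale over the 15 arrays, after each probe was centred on its own mean. Such a profile is ruled by the juvenile arrays that also chose the genes, so the likeness is a description.

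The nearest probes to unigene56675 were a probe annotated as a matrilin-like 40 kDa protein (CUST_44427, RMS 0.408), an unannotated probe (CUST_55726, RMS 0.444) and PFMG3 (RMS 0.478), and all 3 also had their larval maximum at the trochophore stage. Their mean log2 signals there were 7.20, 10.44 and 6.76, against 5.32, 7.66 and 4.64 in eggs. The egg means 5.32 and 4.64 lie under 5.61, the lowest signal with the flag on any egg array, so they give no size of a rise. Matrilins are extracellular matrix proteins of cartilage in vertebrates. Of the 5 genes unigene56675 had the fewest probes within an RMS of 1, at 46. Within an RMS of 0.5 it had 3, as did unigene18749, while unigene51738 had 0.

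The nearest to unigene35118 were an unannotated probe (CUST_6651, RMS 0.412), a probe similar to a Drosophila gene of unstated function (CUST_5415, RMS 0.428) and a known shell matrix protein of Pinctada fucata (CUST_44067, RMS 0.468). That known probe averaged 15.72 ± 0.26 in juveniles, against 7.72 ± 0.06 at the umbonal stage, and unlike unigene35118 it was well above background on every array. Within an RMS of 1 lay 230 probes. As unigene35118 was near background on most arrays before the juvenile, this likeness rests mainly on 1 step. None of these 3 nearest probes was kept under another measure of likeness.

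The nearest to unigene18749 were an unannotated probe (CUST_44748, RMS 0.356), a protein-O-xylosyltransferase (CUST_34525, RMS 0.443), an enzyme that starts the sugar chains of proteoglycans, and a glutamine synthetase (CUST_6505, RMS 0.476), which makes glutamine from glutamate and ammonia. In all 3 the egg was the highest stage after the juvenile and the umbonal stage the lowest. The nearest to unigene51738 lay farther off, a probe outside the study's lists (CUST_42402, RMS 0.558), a probe similar to otopetrin (CUST_29998, RMS 0.587), a proton channel family, and an unannotated probe (CUST_43479, RMS 0.606). Within an RMS of 1 lay 132 probes for unigene18749 and 94 for unigene51738.

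For unigene34354, 2741 probes lay within an RMS of 1, and the nearest were CUST_10114 and CUST_10985, which are outside the study's lists, and the unannotated CUST_54537 (RMS 0.290 to 0.335). Its values before the juvenile were all under the measurable level, so this likeness rests on background and on 1 step. The 10 pairs among the 5 differed by an RMS of 1.27 to 2.43, and the closest pair was unigene18749 and unigene34354.

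**Figure D4:**
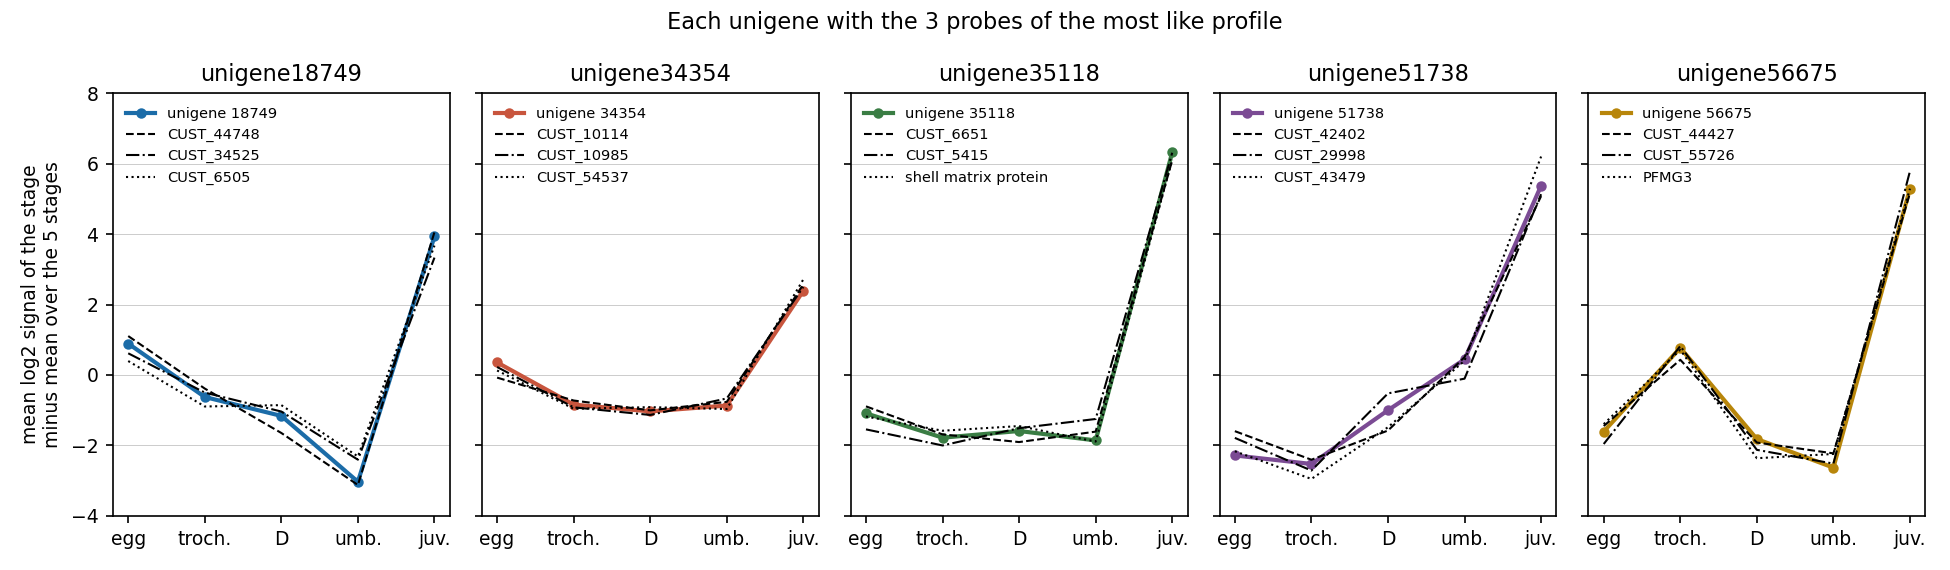
Mean log2 signal of each stage minus the mean over the 5 stages (y axis) for each unigene (coloured line, 1 per panel) and for the 3 probes with the most similar profile over 15 arrays (black lines), by stage (x axis). The panel of unigene56675 has a larval maximum at the trochophore stage and that of unigene51738 has its highest larval mean at the umbonal stage.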

How the data were processed

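One-colour Agilent arrays gave transcript levels for 15 pools of Pinctada fucata, 3 at each of 5 stages. Per the file headers, intensity was deposited as processed by Feature Extraction 11.5.1.1, with the background subtracted and each array detrended. The authors' processed table holds log2 values. For at least 98.9% of its 58583 probes on each array they equal the log2 of the scanner signal less a constant near that array's 75th percentile, within 0.01, so no quantile normalization is seen in them, although the methods name it. The authors' lists of changed probes were used for membership and annotation only. Their fold changes were not used.

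Outlier and control spots were dropped, the spots of each probe averaged, and the signal floored at 1, logged and quantile-normalized over 58883 probes. A model with 1 mean per stage was fitted to the 15 arrays with limma 3.58.1 (R 4.3.3). A test required the flag of a signal well above background on every array of either stage, and a call required both a change of 2-fold or more and p under 0.05 after Benjamini-Hochberg adjustment. Where the dimmer stage had the flag on no array, its mean was taken with each array at its lowest flagged signal, or at the signal of the probe where that was higher, and the fold given as "at least". The model was tested on simulated data. The named genes are the 5 candidates, for each the 3 probes of smallest RMS difference, and of the known genes those called with the 2 largest rises and 2 largest falls at each step. Shematrin-7 and the levels of the known shell matrix protein were added after their values were seen. The members and lists were chosen with earlier results of these data known.

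Alternatives were scaling by 8 spike-in probes or by the 75th percentile, the authors' table, normexp with an offset of 50, a filter on all 6 arrays or none, p without adjustment, a fit to the 6 arrays compared, the slide or the replicate number as a block, another measure of likeness and each array left out in turn. Normexp was planned on the mean signal and run on the median signal. Added after seeing the data were the bound for unigene34354 and the comparisons within slide 1. The number of arrays limits the precision, since the files hold no counts. Probe sequences were not used here. Tables were made in Python 3.11.15 with pandas 2.3.3 and numpy 2.4.6.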

Additional observations from a re-analysis of the deposited data

How the results depend on the processing

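The members called numbered 2 at each of the 3 tested comparisons, and 2 with each array left out in turn. With normexp background correction 1 was called at each comparison, with a filter on all 6 arrays 1 at each, and with spike-in scaling 1 at the trochophore stage against eggs. At the D-shaped stage against eggs 2 were called with spike-in scaling, both higher, where unigene56675 took the place of unigene18749. The filter on all 6 arrays tests fewer probes, and the cause of the other losses was not tested. For unigene18749 the change at the trochophore stage was -0.98 with normexp. Without a filter on dim probes unigene34354 passed the limits at the trochophore and D-shaped stages against eggs (-1.20 and -1.39), from values that were all under the measurable level. With the filter on all 6 arrays all probes called were 12643 at the trochophore stage and 15792 at the D-shaped stage against eggs, where 20265 and 26162 were called with the filter on either stage.

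The known biomineralization genes called at the trochophore stage against eggs were 4, and 7 with the 75th-percentile shift (4 higher, 3 lower), 7 with the authors' processed values, 9 without a filter and 2 with the filter on all 6 arrays. At the D-shaped stage against eggs they were 4, and 9 without a filter and 2 with the filter on all 6 arrays. The listed uncharacterized probes called were 95, 102 and 129 at the trochophore stage against eggs, the D-shaped against the trochophore stage and the D-shaped stage against eggs, and 251 (90 higher, 161 lower), 181 (80 higher, 101 lower) and 318 (106 higher, 212 lower) without a filter, against 27, 40 and 32 with the filter on all 6 arrays. The listed annotated probes called were 37, 43 and 54 at these comparisons. Without a filter they were 99 at the first and 118 at the last, and with the filter on all 6 arrays 9, 13 and 11.

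The median difference of the 5 genes between juveniles and the umbonal stage was 6.97, and 6.51 with spike-in scaling, 4.99 with normexp and 6.89 to 7.18 with 1 array left out. Between juveniles and the D-shaped stage it was 6.38, and 5.92 with the 75th-percentile shift and in the authors' processed values, 5.31 with normexp and 6.22 to 6.61 with 1 array left out. Between the umbonal and the D-shaped stage it was -0.27, and 0.11 with spike-in scaling, -0.86 with the slide as a block and -0.54 to 0.02 with 1 array left out, where leaving out D-shaped pool 3 gave 0.024. Under the other likeness measure, 1 minus Pearson's r, 2, 0, 0, 1 and 2 of the 3 nearest probes of unigene18749, unigene34354, unigene35118, unigene51738 and unigene56675 were shared, and after the 75th-percentile shift 2, 0, 1, 2 and 2.

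The replicate numbers of the labels did not pair the arrays, as same-numbered arrays of 2 stages deviated from their stage means with a correlation of -0.64 to 0.35 over 15 pairs. With the replicate number as a block, 2 members were called at each comparison and the count of all probes called moved to 20243 at the trochophore stage against eggs.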
